A study of Mus musculus with 9 samples.

Results

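The repeat names described here are those of 2 groups of mouse retroelements, the intracisternal A-particles (IAP) and the early transposons (ETn). They were taken from tables of counts by Repbase repeat name wherever the name began with IAP, ETN or MMETN or held the letters IAP anywhere, which gave 25 of the 312 names found in at least 1 library. The study fractionated nuclei of the mouse embryonic stem cell (ESC) line E14Tg2a, whose genetic background is 129P2 and which was maintained with LIF. In the assay of high-salt recovered sequences, nuclei are extracted with salt and their DNA is digested with StyI, a restriction enzyme. The HRS fraction is the DNA that stays with the insoluble nuclear material, and the Loop fraction is the DNA that is released. There were 3 HRS libraries, 3 Loop libraries and 3 libraries of input, which is genomic DNA that was not fractionated. The inputs are titled D0, D12 and D21, which the labels do not explain. All 9 libraries came from the same cell line, no library was labelled with a treatment or a mutation, and the DNA libraries hold no marker transcripts by which the cell type could be checked.

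IAP elements are endogenous retroviruses of class II (the ERVK group) that are present in many copies in the mouse genome. A complete copy has an internal part with gag, pro and pol genes between a pair of long terminal repeats (LTRs), and the LTRs hold the promoter and the polyadenylation signal. LTRs also occur alone, where recombination has removed the internal part. In embryonic stem cells IAP copies are kept silent by DNA methylation and by histone H3 lysine 9 trimethylation laid down by SETDB1 and its partner TRIM28. ETn elements code for no protein of their own, are transcribed in the early embryo and are mobilised by proteins of the related MusD elements.

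Each repeat table held 1.68 to 2.67 M counts, which was 3.61% to 4.85% of the counts in the tables of StyI fragments of the same libraries. Values below are CPM, the count of a name scaled to a repeat table of 1 M counts. The names of the deposited repeat files carry a letter that the labels do not explain. It is A for HRS replicates 1 and 3, Loop replicate 2 and the D21 input, and B for HRS replicate 2, Loop replicates 1 and 3 and the D0 input. The D12 input has none. The 2 satellite names, GSAT_MM and SATMIN, together held 3.85% to 4.45% of the counts in the 3 fraction libraries with the letter A, against 0.302% to 0.698% in the 3 with the letter B and 0.892% to 2.10% in the inputs. The labels do not say whether replicates were grown as separate cultures. The p-values therefore measure the variation among the libraries at hand, which may be technical.

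By the mark I in a name, 9 IAP names were internal and 13 were LTRs. The ETn names ETNERV and MMETN do not hold the letters LTR and were taken as internal, so that no ETn LTR was among the names. They are grouped as ETn by the letters of their names only. Whether either of them codes for protein is not given in the sources used here. IAPA_MM carries neither mark. It held 1 count in the D21 input and none in the other 8 libraries, where a count of 0 allows at most 1.13 to 1.79 CPM depending on the library. The internal IAP names held 75.7% of all counts of the 25 names, the IAP LTRs 22.1% and the ETn names 2.2%. Of the IAP names, IAPLTR1a_I_MM held 29.7% of those counts, IAPEZI, an internal part, 26.8%, and the LTR RLTR2aIAP_MM 12.8%. A name that fell just outside the rule, RLTRETN_MM, an ETn LTR, had 60.2 to 94.5 CPM over the 9 libraries.

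Apart from IAPA_MM, the names ranged from 0.375 CPM (IAPEY3_LTR in the D0 input) to 60934 CPM (IAPLTR1a_I_MM in Loop replicate 3), so that precision differed between them. For the 14 names with a mean above 1000 CPM the 95% Wilson interval of a library's share was at most ±4.10% of its value. For the LTR names IAPLTR3 and RLTR1IAP_MM it was ±6.71% to ±15.7% and ±13.8% to ±19.8%, and for LTRIAPEY ±27.4% to ±54.1%. Tags are not known to be independent molecules, and these intervals cover counting error only. Many of the names are closely related in sequence and the tags are short, so that a tag may match several of them. How such tags were counted is not given in the sources used here, and the division of counts between related names is uncertain for this reason.

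**Figure D1:**
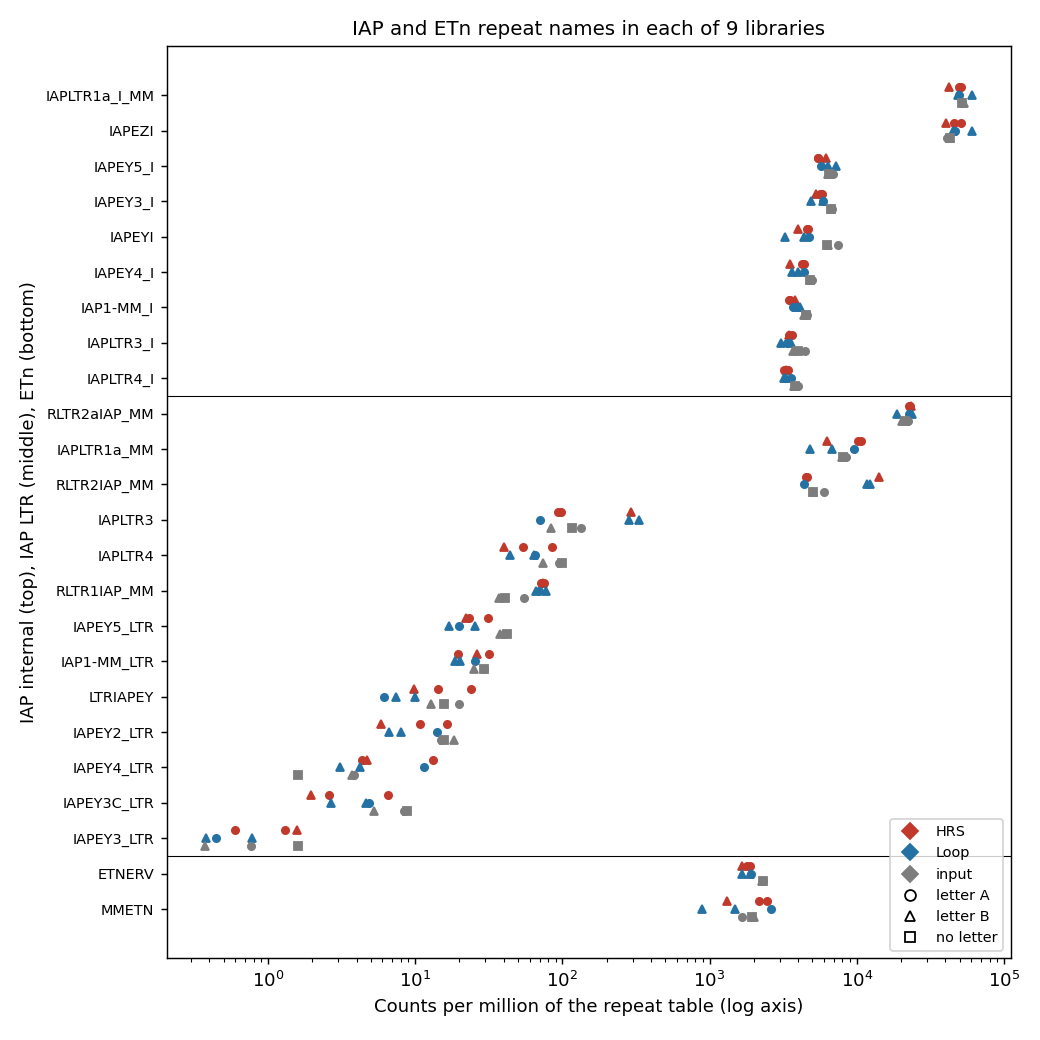
CPM of the repeat table (log axis) for 24 of the 25 IAP and ETn names in each of 9 libraries. Colours give HRS, Loop and input, and symbols give the letter of the repeat file. Most internal names sit in narrow clusters between 3052 and 7411 CPM, whereas the triangles of RLTR2IAP_MM and IAPLTR3 in the fractions sit far to the right of the circles.

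Taken as a whole, the 25 names held 16.8%, 16.0% and 17.5% of the repeat counts in HRS replicates 1, 2 and 3. They held 17.2%, 16.9% and 19.0% in Loop replicates 1, 2 and 3, and 17.1%, 17.1% and 17.3% in the D0, D12 and D21 inputs. The HRS and Loop ranges overlapped each other and the inputs lay inside both, with Loop replicate 3 the highest library.

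The internal IAP names together held 12.6%, 11.2% and 13.2% in the HRS libraries, 12.5%, 12.7% and 15.1% in the Loop libraries, and 13.3%, 13.2% and 13.2% in the inputs. Their mean (± SD, n = 3 each) was 12.3% ± 1.01 in HRS libraries, 13.5% ± 1.45 in Loop libraries and 13.2% ± 0.0558 in inputs, and the fractions differed among their own replicates far more than the inputs did. The IAP LTR names held 3.79%, 4.44% and 3.87% in HRS, 4.32%, 3.69% and 3.59% in Loop, and 3.38%, 3.46% and 3.72% in input. As shares of the repeat table, all HRS libraries lay above all inputs here, while the Loop libraries overlapped both. The log2 ratio of HRS to input for the LTR sum was 0.19, with an exact two-sided permutation p of 0.1, the smallest that 3 libraries against 3 can give. Without HRS replicate 2 it was 0.12.

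The ratio of internal to LTR counts does not depend on the table total, since both sums come from the same library. It was 3.32, 2.53 and 3.42 in HRS replicates 1, 2 and 3, against 3.93, 3.81 and 3.54 in the D0, D12 and D21 inputs. All 3 HRS libraries lay below all 3 inputs, a log2 difference of -0.29 (exact two-sided permutation p = 0.1, the smallest possible). Without HRS replicate 2, the lowest library, the difference was -0.16. In Loop replicates 1, 2 and 3 the ratio was 2.90, 3.45 and 4.22, a range that took in those of HRS replicates 1 and 3 and of the inputs. The log2 difference was -0.18 for HRS against Loop (p = 0.4) and -0.11 for Loop against input (p = 0.6) by the same exact permutation test. With each library left out, the first ran from -0.32 (without Loop replicate 1) to -0.04 (without Loop replicate 3), and the other from -0.25 (without Loop replicate 3) to 0.02 (without Loop replicate 1).

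This order of HRS and input depended on how the names were divided. The mark I was used after the names had been seen. Read by the letters LTR alone, IAPLTR1a_I_MM, IAPLTR3_I and IAPLTR4_I fall among the LTR names. Names with LTR then averaged (± SD, n = 3 each) 9.47% ± 0.171 in HRS libraries, 9.84% ± 0.497 in Loop libraries and 9.55% ± 0.138 in inputs. The ratio of names without to names with LTR then overlapped between HRS and input, with a log2 difference of -0.05 (exact two-sided permutation p = 0.7).

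**Figure D2:**
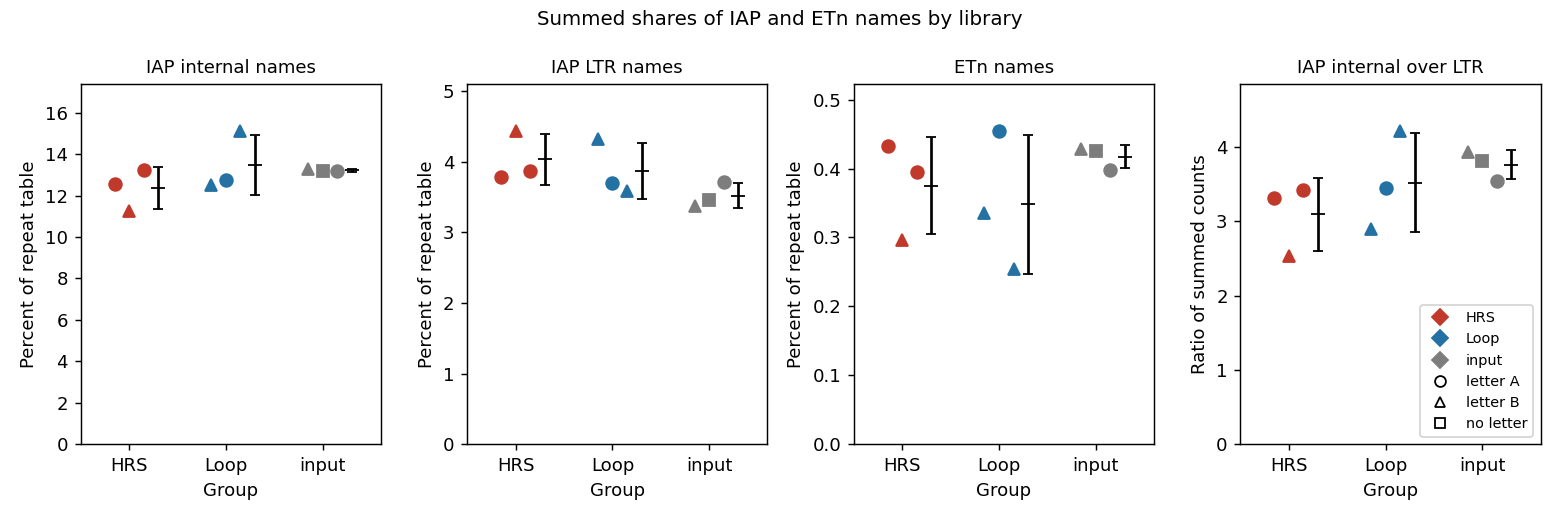
Share of the repeat table (percent) of internal IAP names, IAP LTR names and ETn names, and the ratio of internal to LTR counts of IAP, in each HRS, Loop and input library, with the mean and SD of 3 libraries in black. HRS libraries lie above inputs for the LTR names and below them for the ratio (2.53 to 3.42 against 3.54 to 3.93), and the ETn share splits by symbol in both fractions.

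The comparison of HRS with Loop asked whether IAP or ETn DNA was kept with the insoluble material more than it was released. With the libraries grouped by their titles, no name of these elements differed by the test. edgeR's quasi-likelihood test with Benjamini-Hochberg adjustment called 0 of 23 names tested, where 0 of all 289 names were called (0.0%), and 2 of the 289 had an unadjusted p under 0.05. DESeq2 called 0 of the 289 as well, with 3 at an unadjusted p under 0.05. For none of the 23 names did the 3 HRS and 3 Loop libraries separate on the scale of repeat counts, while 2.77% of all names separated in either direction. Scaled to the tables of StyI fragments, which moved the median log2 ratio of all names to 0.18, the HRS libraries lay above the Loop libraries for 5 of the 23 (RLTR2aIAP_MM, IAPEYI, IAPEY4_I, IAPLTR3_I and LTRIAPEY), where 20.4% of all names did. They lay below for 0 of the 23 (0.346% of all names), and 0 names were called on this scale. In the first edgeR fit, which was not scaled in this way, the median log2 ratio of the 23 names was 0.03, against -0.00 over all names.

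The most counted name, IAPLTR1a_I_MM, the internal part that goes with the LTR of the same number, had 49240, 42400 and 51218 CPM in HRS replicates 1, 2 and 3, against 48862, 49270 and 60934 CPM in Loop replicates 1, 2 and 3. The inputs D0, D12 and D21 had 53643, 52130 and 51512 CPM. HRS replicate 2 was the lowest of the 9 libraries and Loop replicate 3 the highest, and the fractions overlapped. The log2 ratio of HRS to Loop was -0.18 ± 0.15 (SE, adjusted p = 0.975 by edgeR). IAPEZI, another internal part, had 45865, 40398 and 50777 CPM in HRS, 44890, 46604 and 60927 CPM in Loop and 42917, 43237 and 40964 CPM in input, with the same libraries at both ends of the fractions and a log2 ratio of HRS to Loop of -0.18 ± 0.17 (SE).

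The ratio of these most counted names to each other varied less among the fraction libraries than the level of either did. IAPEZI stood at 0.932, 0.953 and 0.991 times IAPLTR1a_I_MM in HRS replicates 1, 2 and 3, at 0.919, 0.946 and 1.00 times in Loop replicates 1, 2 and 3, and at 0.800, 0.829 and 0.795 times in the inputs. All 6 fraction libraries lay above all 3 inputs. The pair was chosen for its high counts after its values were seen, and this ratio was not tested.

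The LTR RLTR2aIAP_MM had 22733, 23372 and 23116 CPM in the HRS libraries, against 23605, 22714 and 18751 CPM in the Loop libraries and 20398, 21180 and 22313 CPM in the inputs. The HRS libraries lay close together and above the inputs, while the Loop libraries spread on both sides. LTRIAPEY, a rare LTR name, had 14.4, 9.83 and 23.9 CPM in HRS replicates 1, 2 and 3, against 9.93, 6.17 and 7.37 CPM in Loop replicates 1, 2 and 3. It had the largest log2 ratio of HRS to Loop among the 23 names, 0.96 ± 0.38 (SE, adjusted p = 0.975 by edgeR), and Loop replicate 1 overlapped the HRS libraries. The ratio was 0.60 without HRS replicate 3. It was 1.59 within letter A and 0.17 within letter B, where 1 fraction has a single library that is assumed to vary like the other fraction's pair.

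With the letter as a term, edgeR's quasi-likelihood test with Benjamini-Hochberg adjustment again called 0 of 289 names between HRS and Loop, and 3 of the 289 had an unadjusted p under 0.05, none of them IAP or ETn. Within both letters, every HRS library lay above every Loop library for RLTR2IAP_MM and IAPEY3_LTR, and below for the internal names IAPEY5_I and IAP1-MM_I. IAPEY3_LTR held 1 to 4 counts per library, too few to be tested. Each letter holds only a single library of HRS or of Loop, and the share of all names with such an order was not computed. These orders are therefore not read as differences. With the letter as a term, RLTR2IAP_MM, whose values are given below, had a log2 ratio of HRS to Loop of 0.15 ± 0.09, IAPEY5_I of -0.10 ± 0.10 and IAP1-MM_I of -0.08 ± 0.09 (SE, adjusted p = 0.993 each by edgeR).

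More names differed by the letter of the repeat file. With the fraction as a term, edgeR's quasi-likelihood test with Benjamini-Hochberg adjustment called 6 of 23 IAP and ETn names between letters A and B. Over all 289 names it called 94, or 32.5% (0 were called between fractions with the letter as a term), so that the share among these names was no higher than the background. Of the 6, 3 were higher in A (13.1% of all names were) and 3 lower (19.4% of all names were). Over all names the split was 45 higher and 39 lower with repeat table totals and 22 and 83 with StyI fragment totals, and the 3 higher and 3 lower names here held their directions under both. On the CPM scale 5 of the 23 names had all A libraries above all B libraries (27.3% of all names), and 4 had them below (22.1% of all names). What the letter stands for is not known. A difference in cells, in library preparation, in counting or in the labelling of libraries cannot be told apart from it. The split into A and B is also the split into HRS and Loop with replicate 2 of each exchanged. Whether replicate 2 of HRS and of Loop had been exchanged was not tested, and the comparison of HRS with Loop takes the titles as given.

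The largest differences were in LTR names. RLTR2IAP_MM had 4626, 4522 and 4376 CPM in the libraries with the letter A (HRS replicates 1 and 3, Loop replicate 2), against 14207, 12283 and 11821 CPM in those with B (HRS replicate 2, Loop replicates 1 and 3). Its mean was 4508 ± 125 CPM in A and 12771 ± 1266 CPM in B (SD, n = 3 each), and the log2 ratio of A to B was -1.61 ± 0.09 (SE, adjusted p = 4.4e-07 by edgeR). The libraries of each letter lay close together, whichever fraction they came from. The inputs did not follow the letter, with 5964 CPM in D21 (A), 5082 CPM in D0 (B) and 5055 CPM in D12.

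IAPLTR3, an LTR counted less often, had 97.7, 93.7 and 71.0 CPM in A, against 293, 284 and 331 CPM in B. The log2 ratio of A to B was -1.91 ± 0.15 (SE, adjusted p = 5.71e-06 by edgeR), and the inputs had 133 CPM in D21 (A), 83.3 CPM in D0 (B) and 116 CPM in D12. Its internal part, IAPLTR3_I, did not go with it. IAPLTR3_I averaged 3480 CPM in A and 3352 CPM in B, with a log2 ratio of -0.03 ± 0.09 (SE, adjusted p = 0.868 by edgeR). The fitted ratios use TMM factors, unlike the CPM, and with repeat table totals this one was 0.03.

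The LTR IAPLTR1a_MM went the other way. It had 10153, 10708 and 9547 CPM in A, against 6319, 6805 and 4786 CPM in B, and the inputs lay between, at 8483 CPM in D21 (A), 7994 CPM in D0 (B) and 8022 CPM in D12. The log2 ratio of A to B was 0.66 ± 0.12 (SE, adjusted p = 0.00134 by edgeR). Its internal part, IAPLTR1a_I_MM, averaged 49909 CPM in A and 50732 CPM in B, with a log2 ratio of -0.02 ± 0.13 (SE, adjusted p = 0.917 by edgeR) that was 0.04 with repeat table totals. For IAPLTR1a_MM and IAPLTR3 the LTR name thus passed the test and the internal name did not, but whether LTR and internal names differed from each other was not tested.

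MMETN, an ETn name, had 2458, 2161 and 2631 CPM in A, against 1305, 1479 and 885 CPM in B. The log2 ratio of A to B was 0.93 ± 0.16 (SE, adjusted p = 0.0013 by edgeR), and the inputs had 1650 CPM in D21 (A), 2019 CPM in D0 (B) and 1957 CPM in D12, the opposite order. ETNERV, the other ETn name, averaged 1861 CPM in A and 1733 CPM in B, a log2 ratio of 0.07 ± 0.09 (SE). MMETN was 1.31, 1.21 and 1.37 times ETNERV in A, against 0.784, 0.788 and 0.534 times in B, and 0.710 to 0.894 times in the inputs. The summed share of the ETn names was 0.428% ± 0.0304 in A and 0.296% ± 0.0408 in B (SD, n = 3 each), with an exact two-sided permutation p of 0.1, the smallest possible.

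The other 2 names called were nearer to the threshold. IAPEY2_LTR, an LTR, had 16.6, 10.7 and 14.1 CPM in A, against 5.90, 8.02 and 6.60 CPM in B (log2 ratio 1.01 ± 0.34 SE, adjusted p = 0.043 by edgeR). IAPEY5_I, an internal part, had 5473, 5460 and 5718 CPM in A, against 6217, 6368 and 7281 CPM in B (log2 ratio -0.28 ± 0.10 SE, adjusted p = 0.0466 by edgeR). Neither was called by DESeq2, which called RLTR2IAP_MM, IAPLTR3, IAPLTR1a_MM and MMETN. These 4 also kept their calls with the satellites left out of the table, whose share moved with the letter. With the letter as a term, IAPLTR3 had a log2 ratio of HRS to Loop of 0.14 ± 0.15, IAPLTR1a_MM of 0.13 ± 0.12 and MMETN of -0.02 ± 0.16 (SE), and none of them was called by edgeR.

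**Figure D3:**
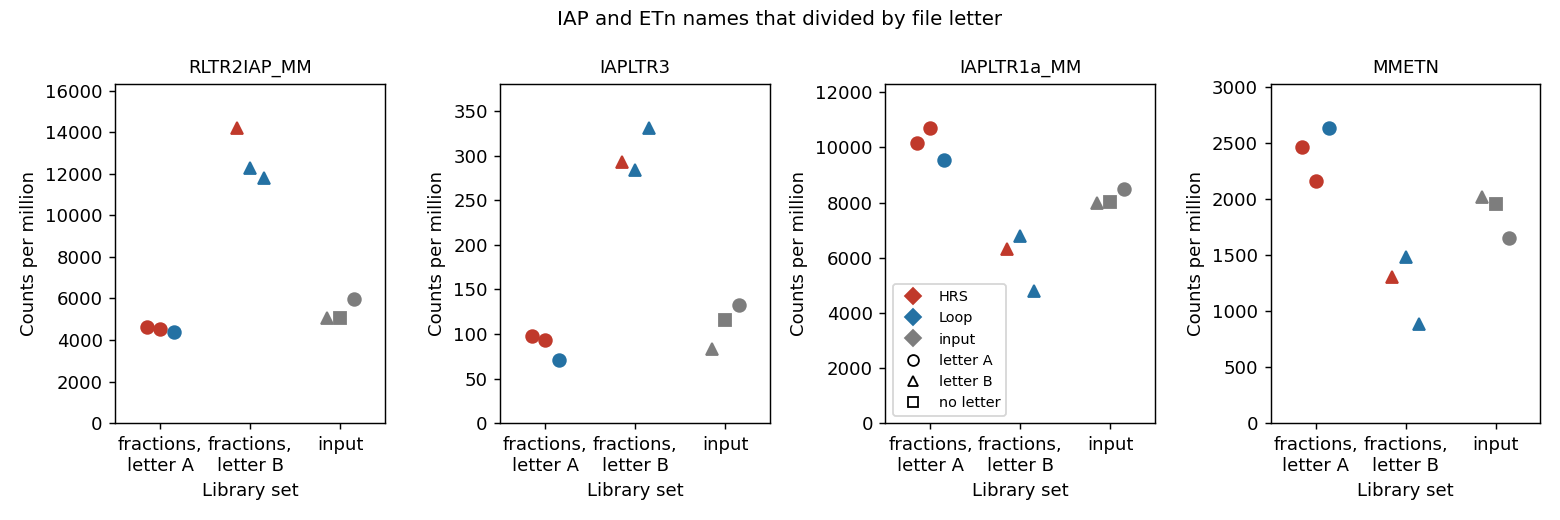
CPM of the repeat table for the 4 names called between letters A and B by both edgeR and DESeq2, by library set, with colours for HRS, Loop and input and symbols for the letter. Fraction libraries divide by letter in each panel with no overlap, and the inputs lie near or between them. D21 (A) and D0 (B) stand in the opposite order to the fractions for RLTR2IAP_MM, IAPLTR3 and MMETN, and in the same order, 8483 against 7994 CPM, for IAPLTR1a_MM.

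**Figure D4:**
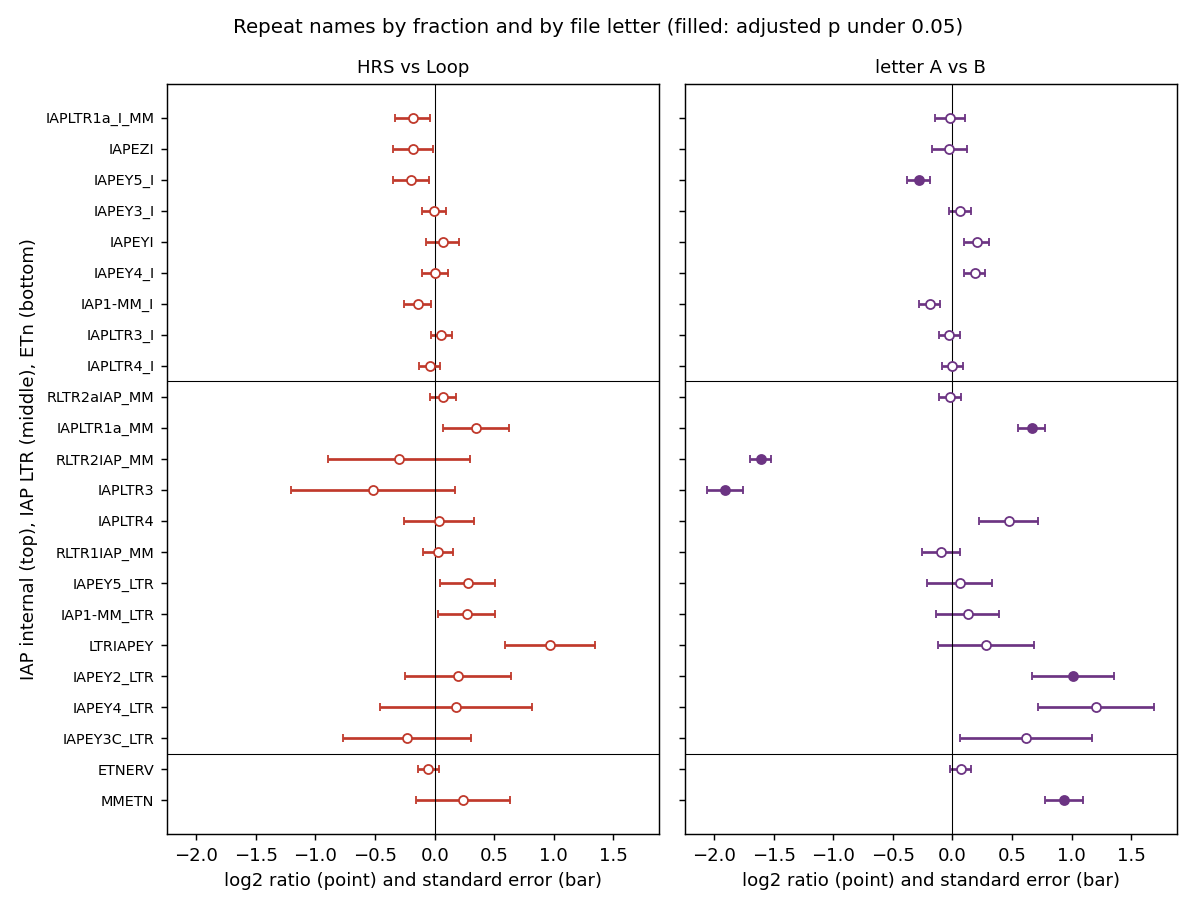
Log2 ratio (point) and standard error (bar) from edgeR for 23 IAP and ETn names, HRS over Loop on the left and letter A over B on the right, with names called at an adjusted p of 0.05 filled. No point is filled for the fractions and 6 are for the letter. The widest bars on the left are those of IAPLTR3 and RLTR2IAP_MM, which differ most between the letters, and of the rare names IAPEY4_LTR and IAPEY3C_LTR.

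Against input, HRS and Loop each had 0 names called by edgeR's quasi-likelihood test with Benjamini-Hochberg adjustment, of 291 (0.0%) and 288 (0.0%) names tested. At an unadjusted p under 0.05 there were 54 and 75. DESeq2 called 25 and 37 names, among them 4 of the names described here in each comparison: RLTR1IAP_MM higher and IAPEYI and ETNERV lower in both, with IAPEY3_I lower in HRS and IAPEY5_LTR lower in Loop. HRS and Loop share the 3 inputs, so the comparisons are not independent of each other. The inputs also differ from the fractions in the form of their files, in which names stand without the quotation marks of the 6 fraction files. A difference in how the files were made and a difference in the DNA cannot be told apart.

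On the CPM scale, 10 of 23 names had every HRS library below every input library, where 18.6% of all names did, and 9 of those 10 were internal (of 11 internal names tested). For Loop it was 12 of 22 names, where 22.2% of all names did, 7 of them internal. In the opposite direction there were 3 of 23 for HRS (13.1% of all names), the LTR names RLTR2aIAP_MM, RLTR1IAP_MM and IAPEY4_LTR. For Loop there were 2 of 22 (11.1% of all names), the LTR RLTR1IAP_MM and the highly counted internal name IAPEZI. The median log2 ratio of all IAP and ETn names tested was -0.14 for HRS and -0.17 for Loop, against 0.02 and 0.03 over all names. The internal names that lay below input in both fractions were IAPEY3_I, IAPEYI, IAPEY4_I, IAP1-MM_I, IAPLTR3_I, IAPLTR4_I and ETNERV. With IAPEY5_LTR these made 8 of 23 names with all 6 fraction libraries below all inputs (14.0% of all names), and 1 of 23 had them above (8.22% of all names). Scaled to the tables of StyI fragments instead, 6 of the 23 names had all fraction libraries below all inputs (13.0% of all names), and IAPLTR3_I and IAPLTR4_I were not among them. None of the 23 then had them all above (1.03% of all names), and the median log2 ratio of all names was -0.11. For HRS alone on that scale, 7 of 23 names lay below input, where 41 of all 291 names did. IAPEY5_I, IAPLTR3_I and IAPLTR4_I were no longer among them. IAPEZI, RLTR1IAP_MM and IAPEY4_LTR lay above input, as did 43 of the 291. For Loop alone, 13 of 22 names lay below (117 of all 288) and 0 above (4 of all 288).

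The calls against input turned on single libraries, and each fit below sets 2 fraction libraries against the 3 inputs. Without HRS replicate 2, the HRS library with the letter B, edgeR called 69 names (23.5%), of which 4 were among the names here and higher (IAPEZI, IAPLTR1a_MM, MMETN and RLTR1IAP_MM) and 5 lower (ETNERV, IAP1-MM_I, IAPEY3_I, IAPEY5_I and IAPEYI). Without Loop replicate 2, the Loop library with the letter A, it called 115 names (39.7%). Of the names here 4 were then higher (IAPEZI, IAPLTR3, RLTR1IAP_MM and RLTR2IAP_MM) and 8 lower (ETNERV, IAPEY2_LTR, IAPEY4_I, IAPEY5_LTR, IAPEYI, IAPLTR1a_MM, IAPLTR4 and MMETN). IAPLTR1a_MM and MMETN were thus higher than input in HRS libraries of the letter A and lower in Loop libraries of the letter B, the order of their levels by letter.

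With all 6 fraction libraries set against the 3 inputs in 1 fit, which was added after the data had been seen, edgeR called 27 of 292 names (9.25%), 4 of them among the 23 IAP and ETn names. The fit had no term for fraction or letter, and HRS and Loop are different parts of the nuclear DNA. The 6 libraries are thus not replicates of 1 condition. Over all names 15 were higher and 12 lower, against 11 and 19 with repeat table totals and 0 and 12 with StyI fragment totals. RLTR1IAP_MM, an LTR name, was the one that was higher (5.14% of all names were). It had 71.5, 73.9 and 74.6 CPM in HRS replicates 1, 2 and 3 and 77.6, 69.2 and 66.4 CPM in Loop replicates 1, 2 and 3, against 37.1, 40.6 and 54.6 CPM in the D0, D12 and D21 inputs. The fraction libraries all lay above the inputs, with little spread between fractions or letters, and the log2 ratio was 0.78 ± 0.14 (SE, adjusted p = 0.0253 by edgeR).

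The 3 names that were lower (4.11% of all names were) came from both kinds. IAPEYI, an internal part, had 4577, 3983 and 4638 CPM in HRS and 4400, 4773 and 3276 CPM in Loop, against 6383, 6288 and 7411 CPM in input, a log2 ratio of -0.58 ± 0.11 (SE, adjusted p = 0.0253 by edgeR). ETNERV had 1875, 1664 and 1788 CPM in HRS and 1877, 1918 and 1656 CPM in Loop, against 2258, 2296 and 2325 CPM in input, a log2 ratio of -0.28 ± 0.06 (SE, adjusted p = 0.0256 by edgeR). IAPEY5_LTR had 31.4, 22.0 and 23.3 CPM in HRS and 25.6, 19.8 and 17.1 CPM in Loop, against 37.9, 42.2 and 39.96 CPM in input, a log2 ratio of -0.72 ± 0.17 (SE, adjusted p = 0.0267 by edgeR). In each of the 3 the fraction libraries all lay below the inputs, and the fractions overlapped. IAPEY3_I, a more highly counted internal part, also lay below, with 5782, 5329 and 5647 CPM in HRS and 5861, 5913 and 4861 CPM in Loop, against 6738, 6692 and 6833 CPM in input. Its log2 ratio was -0.21 ± 0.07 (SE, adjusted p = 0.0959 by edgeR), which was not called.

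These calls rested on the 3 inputs. Without D0 edgeR called 0 of 294 names (56 at an unadjusted p under 0.05), without D12 0 of 296 (52), and without D21 1 of 294, RLTR1IAP_MM. RLTR1IAP_MM was not called when the StyI fragment totals set the scale (adjusted p = 0.0745 by edgeR), nor IAPEY5_LTR without HRS replicate 2 (adjusted p = 0.0503 by edgeR). MMETN averaged 1820 ± 698 CPM in the 6 fraction libraries (SD, n = 6) and 1875 ± 198 CPM in the inputs (SD, n = 3), a log2 ratio of 0.02 ± 0.29 (SE, adjusted p = 0.973 by edgeR) that was -0.04 with repeat table totals, with the spread between letters described above.

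**Figure D5:**
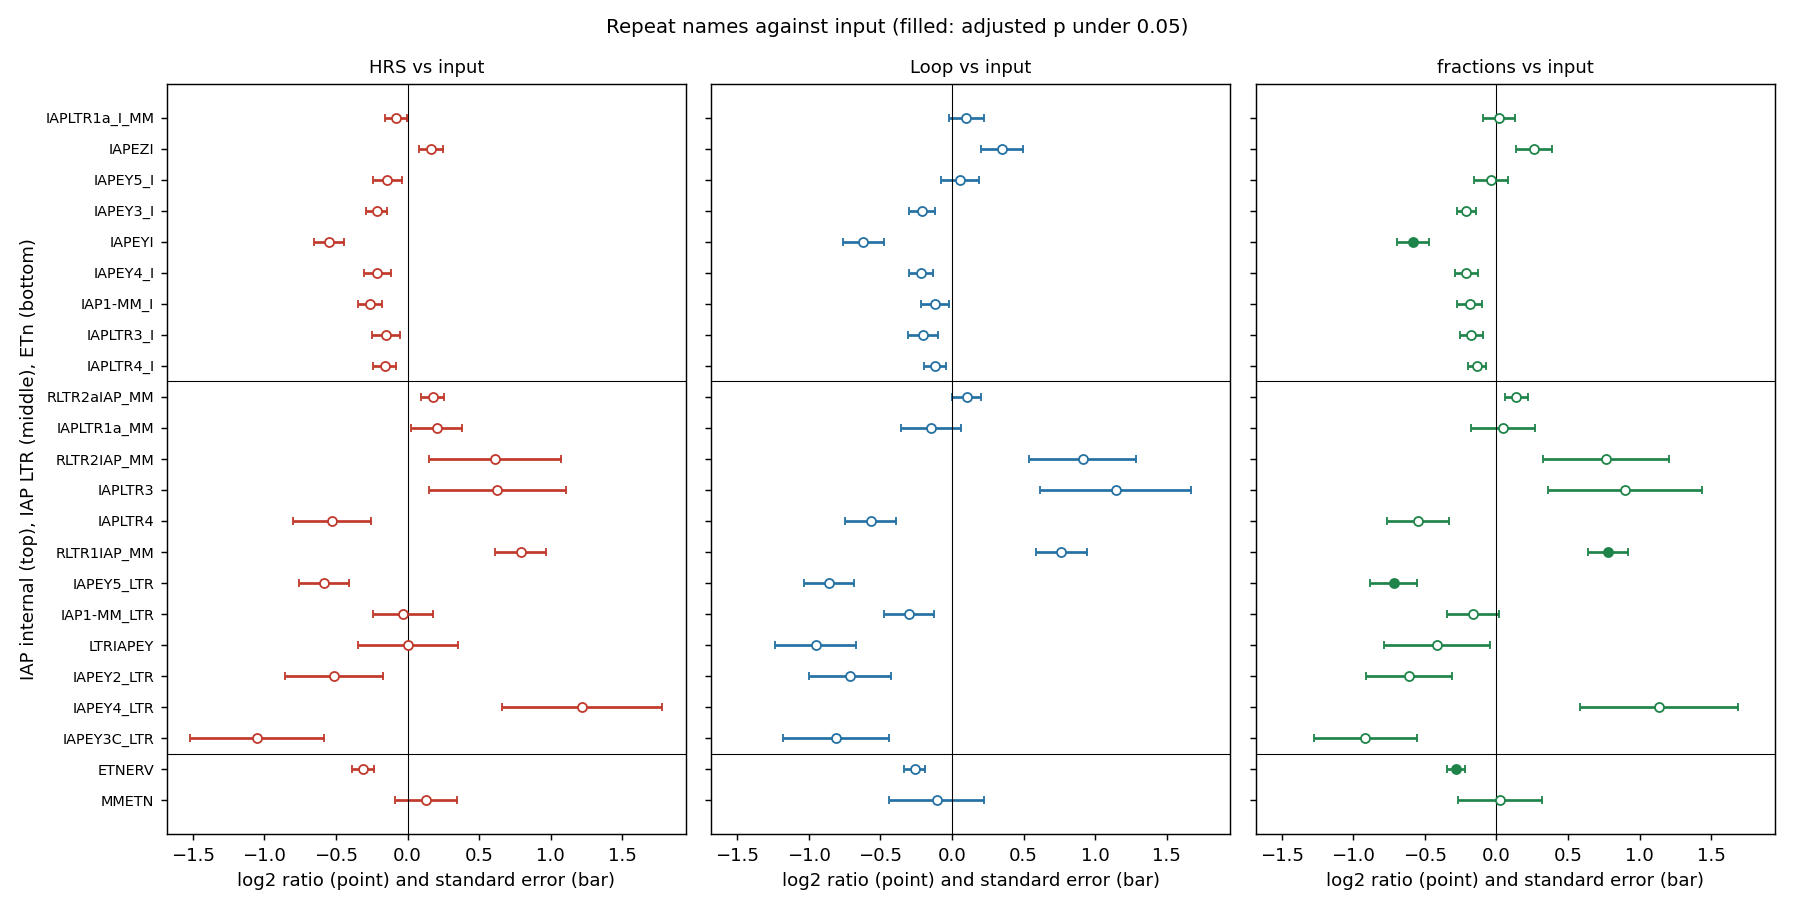
Log2 ratio (point) and standard error (bar) from edgeR for IAP and ETn names, HRS over input, Loop over input and all 6 fraction libraries over input, with names called at an adjusted p of 0.05 filled. No point is filled in the first 2 panels and 4 are in the third, of which RLTR1IAP_MM lies at 0.78 and IAPEYI, IAPEY5_LTR and ETNERV lie below 0.

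Names whose share varied most like the top member of each group over the 9 libraries were looked up among 269 other names. For IAPLTR1a_I_MM these were ERVB4_2-LTR_MM (Pearson r of log2 share 0.93), RLTR20B4_MM (0.84) and RLTR1E_MM (0.78). Their rank correlations (Spearman's rho) were 0.85, 0.82 and 0.53. For ETNERV the names were L1MdFanc_II (Pearson r 0.96), ORR1B2 (0.96) and L1MdF_I (0.95), with rho of 0.97, 0.92 and 0.90. These are descriptions over libraries that share depth, letter and group, and no test was made of them.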

How the data were processed

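Counts by repeat name were analysed in 9 libraries of genomic DNA from 1 mouse cell line. Per the labels' protocols, StyI-cut ends were ligated to an adaptor, cut with MmeI to short tags and sequenced. CASAVA 1.8.2 and the build mm9 are named in the submitters' processing notes. Neither the aligner, nor the Repbase version, nor what was done with tags of several matches is given in the sources used here. Each deposited file holds whole-number counts, not normalized by the authors as far as the values show. One table per library gives a repeat name and its count, and another gives counts per StyI fragment, used here for its totals.

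Groups came from the titles and letters from the repeat file names. The members and lists were chosen with earlier results of these data known. Tests over all repeat names used edgeR 4.0.16 (quasi-likelihood test with TMM factors after filterByExpr at a minimum count of 10) in R 4.3.3 with a Benjamini-Hochberg adjusted p of 0.05, each fit holding the libraries of the groups compared. Of 25 names, 22 or 23 passed the filter. IAPA_MM and IAPEY3_LTR did not in any of these fits, and IAPEY4_LTR did not for Loop against input. Shares of classes and their ratios were compared by exact two-sided permutation over libraries, where 3 against 3 has 20 arrangements. Intervals are Wilson intervals at 95%, and the limit of a count of 0 is 3 counts. The fit of all fractions against input, and the class by the mark I, were chosen after the data were seen. The names described in full were the 8 most counted, those called in a fit, and the classes' sums. LTRIAPEY, IAP1-MM_I and the LTR and internal partners were named after their values were seen. Alternatives were DESeq2 1.42.0, other scalings, no filter, a stricter threshold, subsets by letter and each library left out. Libraries had no values alike within sampling noise. The fits were also run on simulated counts, whose dispersion was the common dispersion of the data divided by 20. That run does not show what they would find at the spread of the data.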

Additional observations from a re-analysis of the deposited data

How the results depend on the processing

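The number of calls moved most. Where an arm has 1 library (a single letter), it is assumed to vary like the other arm, which alone supplies the spread. For HRS against Loop, 1 name was called among letter A libraries and 1 among letter B libraries, neither of IAP or ETn. The replicate block called 0 of 289 names, 0 of them IAP or ETn, with 1 at an unadjusted p under 0.05 by edgeR. Same-numbered HRS and Loop libraries always differ in letter, and their deviations correlated at -0.38, -0.75 and -0.43. HRS and Loop libraries of the same letter correlated at 0.53 to 0.68. The sign thus went with the letter, and these values cannot show whether same-numbered libraries are paired. The numbers were not used as pairs in the other fits. For HRS against input DESeq2 called 25 names (4 IAP or ETn) and HRS replicate 2 alone, the table of letter B, 93 (11). With each library left out the counts ran from 0 to 69 (0 to 9). For Loop against input DESeq2 called 37 (4), the StyI fragment totals 27 (5) and the Loop table of letter A alone 3 (0), and with each library left out the counts ran from 0 to 115 (0 to 12). For all fractions against input DESeq2 called 46 (7), an adjusted p of 0.01 left 0 (0), the StyI fragment totals gave 12 (3), and leaving libraries out gave 0 to 30 (0 to 5). For letter A against B an adjusted p of 0.01 left 50, and leaving libraries out gave 49 to 102 (4 to 6). RLTR2IAP_MM, IAPLTR3, IAPLTR1a_MM and MMETN kept their calls between letters in all 14 alternatives, while IAPEY5_I lost its call in 10 and IAPEY2_LTR in 7.

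Near 0, signs turned. IAPLTR1a_I_MM had a log2 ratio of 0.031 for HRS over Loop within letter A. For Loop over input it had -0.11 with StyI totals, -0.048 with the letter A table, and -0.047 to 0.18 with libraries left out. For fractions over input it had -0.0065 with median-of-ratios factors and with DESeq2, -0.059 with repeat totals, -0.12 with StyI totals, and -0.045 to 0.059 with libraries left out. For A over B it had 0.0005 with median-of-ratios factors and DESeq2, 0.0038 with no filter, 0.044 with repeat totals, 0.0096 without satellites, and -0.22 to 0.19 with libraries left out. IAPEZI had 0.055 for HRS over Loop within letter A (-0.28 to 0.0007 with libraries left out), and for A over B 0.038 with repeat totals, 0.0022 without satellites and -0.25 to 0.20 with libraries left out. RLTR2IAP_MM had -0.25 for Loop over input with the letter A table, against 0.91 with all 3. The cause of these turns was not tested.

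With 3 libraries against 3 an exact permutation p cannot go below 0.1, so no class comparison could pass and the signs are values without a call. Classes by the letters LTR turned as follows. Names with LTR had log2 ratios of HRS over Loop of 0.11 per StyI count and 0.033 within letter A, of HRS over input of 0.013 without satellites and 0.0082 per StyI count, and of Loop over input of -0.10 per StyI count and -0.060 within letter A. Libraries left out gave -0.027 to 0.0002 for HRS over input. Among HRS libraries A over B was 0.027. With the mark I, LTR names had 0.062 for HRS over Loop and 0.19 for HRS over input. Names without LTR had 0.049 per StyI count and 0.017 within letter A for HRS over Loop, 0.0045 within letter A for HRS over input, and -0.089 per StyI count and -0.012 within letter A for Loop over input. For A over B they had 0.049 without satellites and 0.18 among HRS libraries. Libraries left out gave -0.11 to 0.0020 for HRS over input, -0.032 to 0.11 for Loop over input and -0.094 to 0.11 for A over B. ETn names had -0.14 for HRS over Loop, 0.058 for HRS over input and 0.19 for Loop over input within letter A, and -0.077 to 0.34 for HRS over Loop with libraries left out. The ratio of names without to with LTR had 0.031 for HRS over input within letter A and -0.087 to 0.0048 with libraries left out, and for Loop over input -0.039 to 0.070 with libraries left out and -0.11 with the mark I. The ETn ratio could not be computed, since no ETn name holds LTR. With 3 libraries a group and low counts, the rare LTR names could show only large differences.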
